A study of Mus musculus with 281 samples.

Results

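Within 1 sorted progenitor population of mouse bone marrow, the Ly6C+GMP, cells with much Irf8 RNA were set against cells with little of it. Of the 281 single cells in the series, 95 were labelled Ly6C+GMP and carried titles from RMB4434 to RMB4528, while 10 more Ly6C+GMP cells had other titles. The 2 groups were chosen by the measured Irf8 level of each cell. Among the 95 cells, 67 had at least 100 TPM of Irf8 and are called Irf8-high, and 24 had under 10 TPM and are called Irf8-low. The remaining 4 cells lay between the limits and belonged to neither group, so 91 cells were compared. TPM is the abundance of a transcript, corrected for transcript length and given relative to all transcripts of that cell.

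All cells came from C57BL/6 mice, and the labels give no genotype beyond the strain, no treatment and no age. Both groups passed the same gate: negative for lineage markers and Sca-1, positive for c-Kit, CD34 and Ly6C, and high for CD16/32. GMP, the granulocyte-monocyte progenitors, are cells from which neutrophils and monocytes arise. The series asks how uniform such progenitors are, and it also holds CMP (common myeloid progenitors), Ly6C-GMP, and cells labelled proneu, preNeu and tpMo. No label names the animal or the sort from which a cell came, so each group counts as 1 sample. For that reason no test between the groups was possible, and SDs and 95% exact Clopper-Pearson intervals describe cells and their counting error only.

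The RNA of the gated proteins was measured first. Ly6c2, Ly6C itself, and Fcgr3, which encodes CD16, were at 1 TPM or more (called detected from here on) in all 67 Irf8-high and all 24 Irf8-low cells. Kit was detected in 52 of 67 and 23 of 24 cells, and Cd34 in 64 of 67 and 20 of 24. Ly6a, which encodes Sca-1 and was gated out as a protein, was detected in 60 of 67 and 17 of 24 cells. Its means were 18 ± 20.4 and 6.21 ± 6.31 TPM (SD over cells), a difference of 1.31 log2.

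The number of detected genes did not set the groups apart, with a median of 4820 (4049 to 5468) in Irf8-high and 4819 (3951 to 5719) in Irf8-low cells. The 20 most abundant genes took a median of 17.1% of all transcripts in Irf8-high and 20.8% in Irf8-low cells, and mitochondrially encoded genes took 4.44% and 4.05%. One Irf8-high cell, the lowest of its group in Irf8 at 128 TPM, stood apart from all others. It held 46094 TPM of Ngp, where the highest of the other 94 cells held 107, as well as 19117 TPM of S100a8 and 8163 of Camp, all 3 of them genes of maturing neutrophils. Its Elane level was 87.1 TPM and its Ly86 level 2.49 TPM. Doublets were not called, and several results that this cell moves are given with and without it.

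IRF8 is a transcription factor of the interferon regulatory factor family that binds DNA together with partners such as PU.1, the product of Spi1. In myeloid progenitors it is known for promoting monocyte and dendritic cell fates and for restraining neutrophil production, partly by opposing the C/EBP family. The neutrophil line depends on factors such as C/EBP epsilon and GFI1, and its first granules carry enzymes such as myeloperoxidase and neutrophil elastase.

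The stretches of 250 bases before the start of 5 genes are shown because they hold, or lack, the short letter patterns linked to these factors. Irf8 defines the groups, Ctss and Clec7a were higher in Irf8-high cells, and Fcnb and Gfi1 were higher in Irf8-low cells. Sequences are from RefSeq, build GRCm38.p6, 5′ to 3′ on the gene's strand, for 1 start of each gene, and capitals mark matches on either strand. The patterns searched were the ETS and IRF composite element, the interferon-stimulated response element, both of which end in the run GAAA, and TTGCNNAA, the C/EBP letters. Each was searched on both strands, and N stands for any base. The stretches lie at chr8:120736108-120736357 on the plus strand for Irf8, chr3:95526536-95526785 on the plus strand for Ctss, and chr6:129472780-129473029 on the minus strand for Clec7a. Those of Fcnb and Gfi1 lie at chr2:28084879-28085128 and chr5:107725806-107726055, both on the minus strand.
Irf8: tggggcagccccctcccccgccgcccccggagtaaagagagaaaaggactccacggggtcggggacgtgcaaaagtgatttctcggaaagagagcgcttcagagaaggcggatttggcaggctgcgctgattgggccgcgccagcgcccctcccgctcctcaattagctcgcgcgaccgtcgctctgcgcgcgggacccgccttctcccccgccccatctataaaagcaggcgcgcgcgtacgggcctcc
Ctss: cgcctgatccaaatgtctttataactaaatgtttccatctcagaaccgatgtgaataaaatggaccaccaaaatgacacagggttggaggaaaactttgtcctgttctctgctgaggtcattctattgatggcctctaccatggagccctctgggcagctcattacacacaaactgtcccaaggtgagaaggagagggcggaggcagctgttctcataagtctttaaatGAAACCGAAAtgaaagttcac
Clec7a: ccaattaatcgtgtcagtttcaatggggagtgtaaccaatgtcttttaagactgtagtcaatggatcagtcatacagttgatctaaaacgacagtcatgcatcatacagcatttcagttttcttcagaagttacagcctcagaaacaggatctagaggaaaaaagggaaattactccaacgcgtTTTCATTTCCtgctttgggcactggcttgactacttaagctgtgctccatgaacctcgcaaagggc
Fcnb: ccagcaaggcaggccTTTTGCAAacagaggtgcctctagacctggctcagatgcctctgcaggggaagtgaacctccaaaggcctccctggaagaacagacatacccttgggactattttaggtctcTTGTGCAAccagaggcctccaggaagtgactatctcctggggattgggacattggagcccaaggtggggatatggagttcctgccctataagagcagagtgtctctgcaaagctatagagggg
Gfi1: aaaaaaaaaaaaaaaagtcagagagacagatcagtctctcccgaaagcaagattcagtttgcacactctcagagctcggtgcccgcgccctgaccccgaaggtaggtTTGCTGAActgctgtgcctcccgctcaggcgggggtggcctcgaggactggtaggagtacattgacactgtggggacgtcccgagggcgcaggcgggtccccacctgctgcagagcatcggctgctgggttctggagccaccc
The examples with a match were picked for it. The stretch before Irf8 held none of the 3 patterns. Ctss held the interferon-stimulated response letters 21 bases before its start, and Clec7a the reverse strand of the composite letters 66 bases before its start. Fcnb held the C/EBP letters at 2 places and Gfi1 at 1, which lay 143 bases before the start.

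Over all 32851 promoters in the table, 2.3% held the composite letters, 2.98% the response letters and 9.56% the C/EBP letters. Among 116 promoters of genes higher by at least 2 log2 in Irf8-high cells the shares were 3.45%, 3.45% and 9.48%. Among 126 promoters of genes lower by at least 2 log2 they were 1.59%, 1.59% and 11.9%. These are small counts, 4, 4 and 11 promoters of the higher genes and 2, 2 and 15 of the lower ones. Over the 8708 promoters of measured genes the shares were 2%, 2.64% and 7.56%. Of the 15 most higher genes, 9 had promoters in the table, and 0 of these 11 promoters held any of the 3 patterns. The shares describe letters in a short window and say nothing of binding. Of the 97 genes named by rule, 66 had a promoter in the table.

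**Figure D1:**
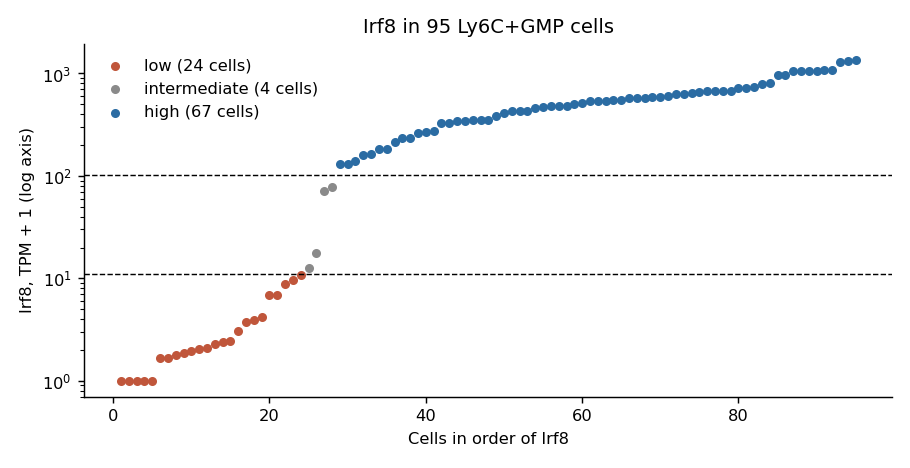
Irf8 level of each of the 95 cells (TPM + 1, log axis), ordered by that level, with dashed lines at the limits of 10 and 100 TPM and colours for the 24 low, 4 intermediate and 67 high cells. The cells pass from 9.81 to 128 TPM through only 4 intermediate values.

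Irf8 chose the groups, so its values are a description. It lies at chr8:120736358-120756694 on the plus strand (GENCODE M21 gene, GRCm38). In Irf8-high cells it ranged from 128 over a median of 535 to 1353 TPM, and in Irf8-low cells from 0 over 1.19 to 9.81 TPM. Of the 24 Irf8-low cells, 14 still had Irf8 detected. The 3 cells just under the lower limit held 7.87, 8.62 and 9.81 TPM, the 4 intermediate cells 11.7, 16.6, 70.2 and 77.6, and the 3 just above the upper limit 128, 130 and 138.

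Differences between the groups are Irf8-high minus Irf8-low means of log2(TPM + 1), a scale that understates changes of weak genes. Of 9433 genes detected in at least 10 of the 95 cells, 811 (8.6%) were higher in Irf8-high cells by at least 1 log2 and 737 (7.81%) were lower by as much. At 2 log2 the counts were 125 and 130, and at 3 log2 they were 34 and 31. Over all of them the median difference was 0.05. Members of gene lists are counted below as higher or lower at the same 1 log2, to be read beside these shares of 8.6% and 7.81%. Without the cell rich in Ngp, 838 genes were higher and 759 lower. As log2 ratios of mean TPM, 1195 were higher and 635 lower. In none of the 811 or 737 genes were the groups free of overlap, so every gene had cells of one group among those of the other.

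**Figure D2:**
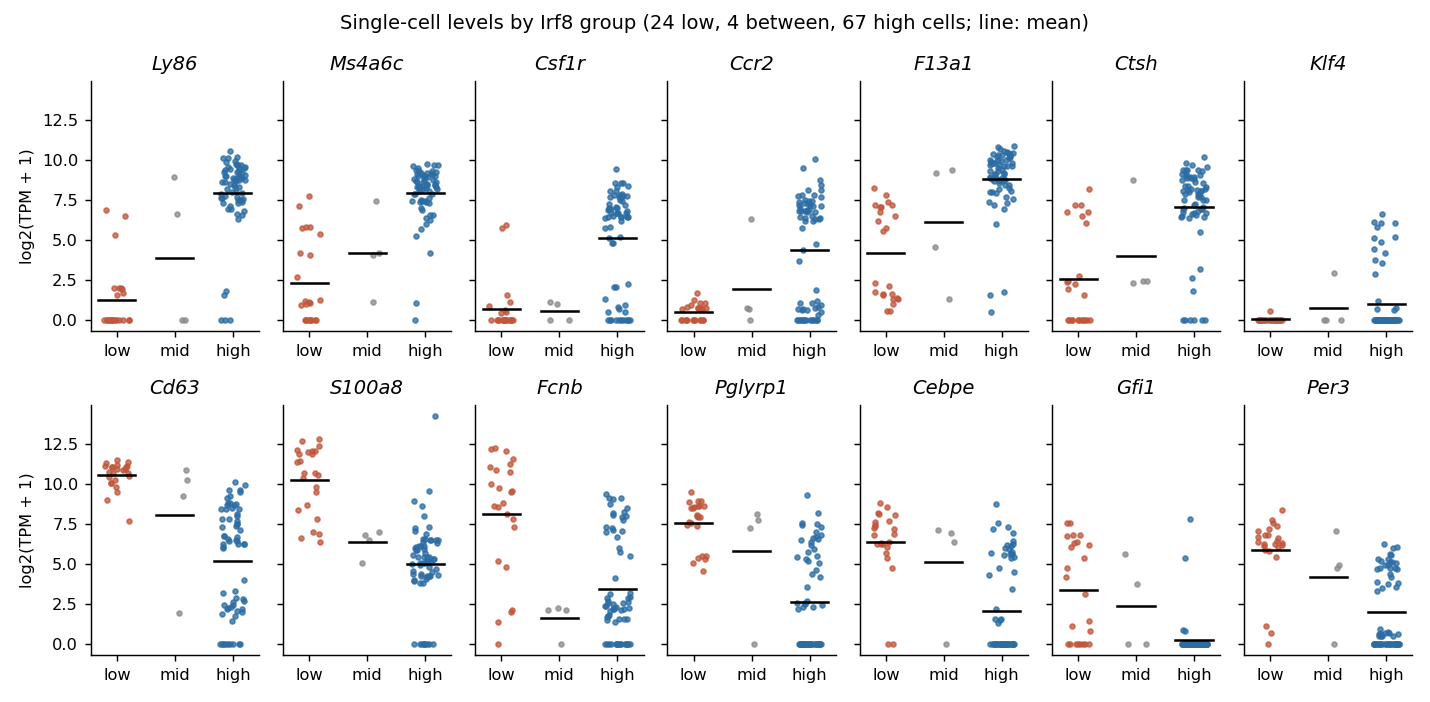
Levels of 14 genes, log2(TPM + 1), with 1 point for each of 24 Irf8-low, 4 intermediate (mid) and 67 Irf8-high cells and a line at the group mean. The upper row holds genes with the higher mean in Irf8-high cells, the lower row genes with the higher mean in Irf8-low cells, and several genes, such as Csf1r and Cebpe, fall into cells near 0 and cells well above it.

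Many monocyte genes were higher in the Irf8-high cells. Of 29 measured members of the monocyte list, 18 were higher by at least 1 log2 and 1, Clec12a, was lower, with a list median of 1.42 beside 0.05 for all genes. The list's summed level was 14221 TPM (median; 2933 to 23060) in Irf8-high and 10131 TPM (8021 to 16908) in Irf8-low cells. The abundant Ly6c2 makes up most of that sum and differed little, by 0.13 log2.

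Ly86 (chr13:37345208-37419036, plus strand) encodes MD-1, the partner of the lipopolysaccharide-sensing surface protein RP105. It differed most of all genes, by 6.72 log2. Irf8-high cells ranged from 0 over a median of 398 to 1479 TPM (mean 435 ± 324, SD, 67 cells), and Irf8-low cells from 0 over 0 to 116 TPM (10.8 ± 29.4, 24 cells). It was detected in 64 of 67 and 9 of 24 cells, and no Irf8-low cell reached the Irf8-high median.

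Csf1r (chr18:61100598-61132149, plus strand) encodes the receptor for M-CSF, the growth factor of monocytes and macrophages. Its range was 0 to 691 TPM with a median of 88.3 in Irf8-high cells and 0 to 60.6 with a median of 0 in Irf8-low cells. It was detected in 51 of 67 (76.1%, interval 64.1 to 85.7%) against 4 of 24 cells (16.7%, 4.74 to 37.4%), a difference of 4.40 log2. The Irf8-high cells were thus mixed for it, with 16 cells under 1 TPM.

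F13a1 (chr13:36867178-37050244, minus strand), the A chain of coagulation factor XIII made by monocytes, was detected in nearly every cell. It ran from 0.4 over 586 to 1880 TPM in Irf8-high and from 0.44 over 25.4 to 304 TPM in Irf8-low cells, a difference of 4.68 log2. The Irf8-high cell at 2.41 TPM was the one rich in Ngp. Ms4a6c (chr19:11469366-11482192, plus strand), a membrane protein of the MS4A family, differed by 5.65 log2, with medians of 332 and 1.11 TPM. RNA of the related Ms4a6 genes is similar in sequence, so its share was estimated by the authors' software.

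Ccr2, the chemokine receptor that monocytes use to leave the marrow, was detected in 44 of 67 Irf8-high cells, where its median was 78.3 and its highest value 1043 TPM. No Irf8-low cell passed 2.21 TPM, and 4 of 24 reached 1 TPM. The difference was 3.89 log2. Other monocyte list members with large differences were Pld4, an endolysosomal nuclease, at 4.17, Emb, a surface glycoprotein, at 3.53, and Tifab at 2.49 log2.

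Klf4 (chr4:55527143-55532466, minus strand), a transcription factor needed for monocyte development, was rare. It was detected in 14 of 67 Irf8-high cells (20.9%, interval 11.9 to 32.6%), with a highest value of 97.5 TPM. It was detected in 0 of 24 Irf8-low cells (interval 0 to 14.2%). Cx3cr1, a chemokine receptor of resident-type monocytes, was likewise detected in 13 of 67 and 1 of 24 cells. Fcgr1, Nr4a1 and Vcan, further genes of mature monocytes, were listed at 0 in every cell of both groups.

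Genes outside the list also rank among the 15 most different. Itpripl1 differed by 5.87 log2 (medians 166 and 0.205 TPM) and was detected in 63 of 67 and 6 of 24 cells. Pyhin1, of the interferon-inducible PYHIN family, differed by 5.00 log2. Lat2, a signalling adaptor beneath immune receptors, differed by 4.05, C1galt1c1, a chaperone for O-glycan synthesis, by 4.03, and Ugt1a7c, a UDP-glucuronosyltransferase, by 4.10. Fbxw4, an F-box protein gene, was listed at 0 in all 24 Irf8-low cells and was detected in 39 of 67 Irf8-high cells, up to 525 TPM.

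**Figure D3:**
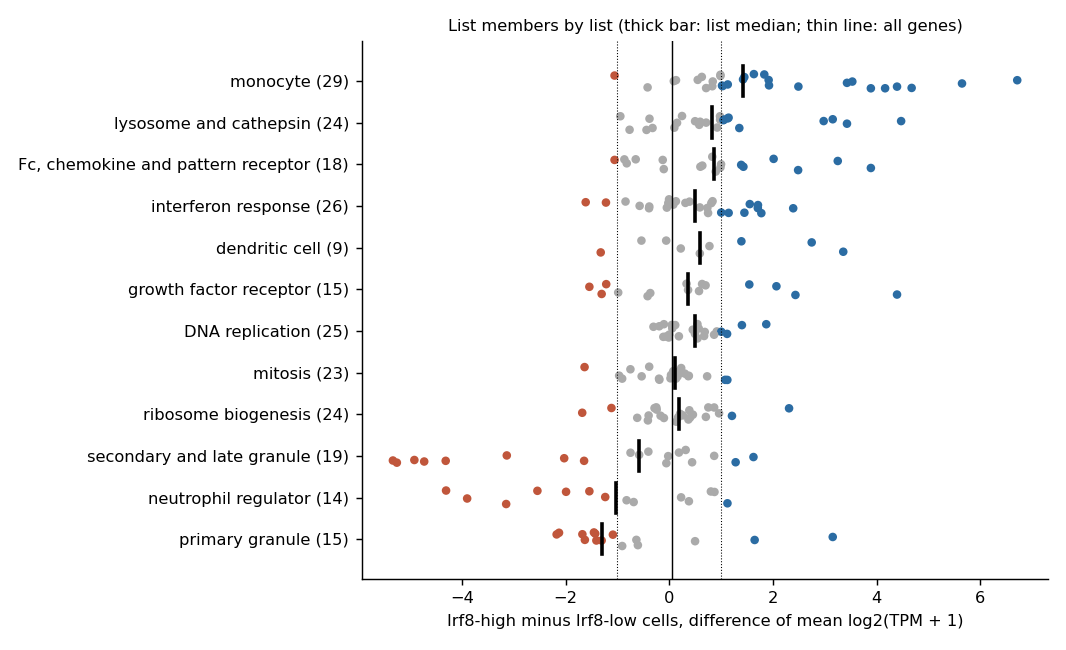
Difference of mean log2(TPM + 1), Irf8-high minus Irf8-low, for each measured member of 12 gene lists (number in brackets), with a thick bar at the list median, a thin line at the all-gene median and dotted lines at 1 log2 either way. The monocyte list lies furthest right with a median of 1.42 and the primary granule list furthest left with -1.31.

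Genes of lysosomes and cathepsins stood higher in Irf8-high cells, 9 of 24 measured by at least 1 log2 and 0 lower, with a list median of 0.82. The largest differences were in Ctsh at 4.47, Ctss at 3.43, Ctsc at 3.16 and Psap at 2.98 log2. Cathepsin S, which trims the invariant chain of MHC class II, is encoded by Ctss, the gene with the response letters shown above. It was split even among Irf8-high cells, with 42 of 67 detected, a median of 1.73 and a highest value of 886 TPM, and its highest value in Irf8-low cells was 2.96 TPM. Ctsb and Ctsd, 2 general cathepsins, differed by only -0.32 and -0.44 log2.

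Of 28 dendritic cell genes 9 were measured, 3 of them higher (33.3%) and 1 lower (11.1%, near the 7.81% of all genes). H2-DMa and H2-DMb1, which load peptides onto MHC class II, differed by 3.36 and 2.75 log2. H2-Ab1, part of MHC class II itself, was detected in 7 of 67 and 7 of 24 cells and differed by -1.32. H2-Aa, Siglech, Batf3, Clec9a and Irf4 were listed at 0 in both groups, and Flt3, the receptor of early dendritic progenitors, was detected in 2 of 67 and 0 of 24 cells. The summed level of the list was 461 TPM (median; 28.2 to 1370) in Irf8-high and 265 TPM (76.2 to 648) in Irf8-low cells.

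Of 15 measured members of the growth factor receptor list, 4 were higher, 3 lower and 8 within 1 log2, with a median of 0.36. Ifngr1 and Tnfrsf1a were among the lower ones, at -1.305 and -1.217 log2. The receptor for M-CSF was among the higher members and that for G-CSF, the neutrophil growth factor, among the lower. Csf3r, which encodes the latter, had medians of 89.9 and 141 TPM and differed by -1.54 log2. It was nevertheless detected in 51 of 67 Irf8-high cells and in 23 of 24 Irf8-low cells. Il6ra and Il6st, the 2 chains of the interleukin-6 receptor, differed by 2.44 and 2.07 log2. Csf2ra, a chain of the GM-CSF receptor, differed by -0.42 log2 and overlapped widely.

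Of 18 measured Fc, chemokine and pattern receptors, 6 were higher and 1 lower by at least 1 log2, and the median was 0.86. Fcer1g, the signalling chain of Fc receptors, was detected in all 67 Irf8-high and in 19 of 24 Irf8-low cells and differed by 3.25 log2 (medians 350 and 64.8 TPM). Cd300lb, an activating receptor, differed by 2.49, and Clec7a, the beta-glucan receptor dectin-1 whose promoter is shown above, by 2.01 log2. Clec7a was detected in 30 of 67 and 5 of 24 cells.

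The interferon response list had 8 of 26 measured genes higher and 2 lower, with a median of 0.49. Ifitm3, a membrane protein that restricts viruses, differed by 2.39 log2, and Gbp3, a guanylate-binding protein, by 1.78. Irf1, a transcription factor induced by interferon, was among the lower members, at -1.61 log2. In the IRF family itself, Irf5 was higher by 1.92 log2, detected in 22 of 67 and 0 of 24 cells (interval 0 to 14.2% for the latter). Irf2 differed by 0.05 log2.

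Of 11 measured transcription factors tied to monocytes and dendritic cells, 4 were higher and 2 lower by at least 1 log2. Their median was 0.41. Zeb2, a repressor active in monocytes, differed by 1.92 log2, with 62 of 67 and 15 of 24 cells detected. Spi1, the gene of the partner PU.1, did not follow Irf8. Its medians were 253 and 283 TPM and its difference was -0.28 log2.

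Of 14 measured members of the neutrophil regulator list, 7 were higher in the Irf8-low cells by at least 1 log2. The other way went 1, Zfp36l2, and the list median was -1.03. The 7 were Cebpe, Gfi1, Csf3r, Per3, Ets1, Myb and Xbp1, so they include genes that are not particular to the neutrophil line. Cebpe (chr14:54710360-54712174, minus strand) encodes C/EBP epsilon, the factor of secondary granule genes. It was detected in 22 of 24 Irf8-low cells (0 over 112 to 447 TPM) and in 27 of 67 Irf8-high cells (0 over 0 to 418 TPM), a difference of -4.31 log2. The highest Irf8-high value, 418, came from the cell rich in Ngp, and the difference was -4.41 without it.

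Gfi1, a repressor that secures the neutrophil line, was found in 15 of 24 Irf8-low cells (62.5%, interval 40.6 to 81.2%) and in 2 of 67 Irf8-high cells (2.99%, 0.364 to 10.4%). The Irf8-low median was 12.2 and the highest value 188 TPM. One Irf8-high cell reached 217 TPM, above all Irf8-low cells. The difference was -3.15 log2.

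Per3, a clock gene, differed by -3.90, and Ets1, an ETS family factor, by -2.55 log2. Myb, which keeps progenitors dividing, was detected in all 24 Irf8-low cells and 65 of 67 Irf8-high cells and differed by -1.99, with medians of 181 and 71.3 TPM. Xbp1, a factor of secretory cells, differed by -1.24. Cebpa, the founding C/EBP factor of the myeloid line, was weak in both groups and differed by 0.38 log2.

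Primary granule genes were lower in Irf8-high cells but far from absent. Of 15 measured members, 9 were lower by at least 1 log2 and 2, Slpi and Ctsc, were higher, with a list median of -1.31. Their summed level had a median of 68102 TPM (12916 to 107915) in Irf8-high and 126939 TPM (70729 to 151377) in Irf8-low cells. TPM are shares of a fixed total, so a larger granule share lowers all other genes of the same cell. With the 20 most abundant and the mitochondrially encoded genes taken out and the rest rescaled, the median of all genes moved from 0.05 to 0.02 log2.

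Elane, neutrophil elastase, ranged from 87.1 over 19370 to 40803 TPM in Irf8-high and from 25487 over 45477 to 61284 TPM in Irf8-low cells (-1.43 log2). No Irf8-low cell was below the Irf8-high median. Ms4a3, a membrane protein typical of GMP, ran from 6.94 TPM to 2007 TPM at the median in Irf8-high and from 3425 over 4917 to 8586 TPM in Irf8-low cells, at -1.68 log2. Mpo, myeloperoxidase, differed less, with means of 29413 ± 8719 and 43524 ± 8618 TPM and -0.61 log2. Prss57 and Nkg7, a granule serine protease and a granule membrane protein, differed by -2.17 and -2.13 log2.

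The secondary and late granule list was split. It also holds genes not confined to such granules, among them Cd63 and S100a8. Ngp, Camp and Ltf were among its members within 1 log2. Of 19 measured, 8 were lower, 2 higher and 9 within 1 log2, with a median of -0.58. As a log2 ratio of mean TPM the median was 0.30 with the cell rich in Ngp and -0.71 without it. The 2 higher genes were Cybb, a chain of the NADPH oxidase, at 1.63 log2, and Lyz2, lysozyme, which was detected in every cell and differed by 1.28 log2 (medians of 1005 and 368 TPM). Cd63 (chr10:128900989-128912822, plus strand), a tetraspanin of granule membranes, had the most negative difference of all genes, -5.33 log2. It ranged from 201 over 1781 to 2815 TPM in Irf8-low cells and from 0 over 75.4 to 1108 TPM in Irf8-high cells. All Irf8-low cells were above the Irf8-high median.

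S100a8, a chain of calprotectin, ran from 81.2 over 1609 to 6963 TPM in Irf8-low cells. In Irf8-high cells its median was 36.6 TPM, and the mean was 352 TPM with the cell at 19117 and 68.1 without it. The difference was -5.26 log2, and -5.40 without that cell. Fcnb (chr2:28076378-28084885, minus strand), ficolin B of neutrophil granules, ran from 0 over 570 to 4839 TPM in Irf8-low and from 0 over 4 to 643 TPM in Irf8-high cells, at -4.73 log2. The 643 TPM came from the cell rich in Ngp, and the difference was -4.82 without it. Fcnb was at 1 TPM or more in 50 of 67 Irf8-high cells, where the upper quartile was 112 TPM.

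Pglyrp1, a peptidoglycan-binding granule protein, was detected in 33 of 67 and 24 of 24 cells and differed by -4.92 log2. Wfdc21, a secreted small protein, was detected in 19 of 24 Irf8-low cells and in 1 of 67 Irf8-high cells, the cell rich in Ngp, and differed by -4.31 log2 (-4.43 without it). Ngp, Camp and Ltf, the hallmark products of secondary granules, did not differ by more than 0.19 log2 in either direction. Their medians were 35.3 and 33.6 TPM for Ngp, 13.6 and 13 for Camp, and 4.45 and 4.74 for Ltf. The differences of these genes include the cell rich in Ngp.

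The other most negative genes came from no fixed list. Hsd11b1, which regenerates active glucocorticoid, differed by -4.97 log2 (medians 1.09 and 285 TPM). Mogat2 and Dgat2, acyltransferases of triglyceride synthesis, differed by -4.33 and -3.93, and Far2, a fatty acyl reductase, by -4.37. Slc40a1, the iron exporter ferroportin, was detected in 2 of 67 and 15 of 24 cells and differed by -4.03. Mgl2, a C-type lectin, differed by -4.23 and Slc28a2, a nucleoside transporter, by -4.08.

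Cd34, whose protein was part of the gate, was higher in Irf8-high cells by 3.39 log2, with medians of 220 and 3.94 TPM. The stem and multipotent progenitor list as a whole had 2 of 12 measured genes higher, Cd34 and Cd27, 0 lower and a median of -0.06. Kit differed by -0.99 log2.

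Genes of cell division differed little. The mitosis list had 2 of 23 genes higher and 1 lower (median 0.11), and ribosome biogenesis 2 of 24 each way (0.19). DNA replication had 4 of 25 higher, Gins1, Mcm2, Gins2 and Tk1, and 0 lower (0.49). The Gins2 difference of 1.12 turned to -0.60 when only cells with under 1 TPM of Irf8 were taken as low. Immediate early and heat shock genes had 0 of 10 higher and 2 lower, and all 10 measured mitochondrially encoded genes stayed within 1 log2.

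A gene listed at 0 in this table may be expressed, since the values come without read counts and some widely used genes are at 0 too. Jund was at 0 in all 95 cells, and mt-Co3, a mitochondrially encoded gene, was detected in 8 of them. With that limit, summed erythroid and megakaryocyte markers had medians of 1.63 TPM (0 to 211) in Irf8-high and 1.92 (0 to 134) in Irf8-low cells, and eosinophil markers 0 (0 to 337) and 0.66 (0 to 276). Siglecf, the 1 measured eosinophil marker, differed by -2.04 log2. Of 28 lymphoid genes 22 were at 0 in both groups, among them Cd3e, Cd79a and Pax5. Cd79b, a chain of the B cell receptor, was detected in 38 of 67 and 11 of 24 cells, with means of 100 ± 147 and 87.8 ± 154 TPM. The lymphoid sum, 883 (4.33 to 1870) and 404 TPM (0 to 1121), came mainly from Ighm, the IgM heavy chain locus, which differed by 2.52 log2. Of 15 basophil and mast cell genes, Prss34, Fcer1a, Cma1, Mcpt4 and 5 more were at 0 in both groups. Their sum of 193 (0 to 666) and 514 TPM (46 to 1065) came largely from Hdc, the histamine-forming enzyme, at -3.11 log2. The part of such cells in the differences was not tested.

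Within the Irf8-high group, several means also differed by the level of Irf8. For F13a1 the means were 68.1 TPM in the 24 Irf8-low cells, 315 in the 4 intermediate cells, 503 in 30 cells from 100 to under 500 TPM of Irf8 and 857 in 37 cells from 500 TPM. For Ctss the 4 means were 0.381, 1.4, 44.8 and 189 TPM, with detection in 13 of 30 and 29 of 37 of the upper cells. For Cd63 they were 1667, 910, 266 and 112 TPM, and for Cebpe 143, 85.2, 45.8 and 12.6 TPM. Gfi1 was detected in 15 of 24, 2 of 4, 2 of 30 and 0 of 37 cells. Neighbouring SDs overlapped in F13a1, Ctss, Cd63 and Cebpe, for instance 503 ± 373 and 857 ± 478 TPM for F13a1. Other genes that set the groups apart did not run with Irf8 inside the Irf8-high group, where Spearman's rho was 0.01 for S100a8, -0.02 for Cd34, -0.02 for Irf5 and 0.06 for Zeb2. Of 52 named genes higher by at least 1 log2, rho was above 0 in 40 (median 0.19), and of 31 lower ones it was below 0 in 24 (median -0.10). The named genes include the 10 most correlated with Irf8 over all 95 cells, so the count of 40 partly follows from that choice. The same count over all genes was not made.

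The 4 intermediate cells were unlike each other. The cell at 70.2 TPM of Irf8 held 487 TPM of Ly86, 575 of F13a1 and 79.7 of Ccr2, with Cebpe at 0 and Cd63 at 2.77 TPM. The cell at 77.6 TPM held 1855 TPM of Cd63 and 137 of Cebpe beside 98.2 of Ly86 and 22.3 of F13a1. The cell at 11.7 TPM held 660 TPM of F13a1 together with 122 of Cebpe, and the cell at 16.6 TPM held 1195 of Cd63 and 1.52 of F13a1. Fcnb did not pass 3.63 TPM in any of them.

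Genes of both lines were found in the same cells at times. Csf1r and Cebpe were detected together in 20 of 67 Irf8-high and 4 of 24 Irf8-low cells, and all 4 Irf8-low cells with Csf1r also had Cebpe. Csf1r and Gfi1 were found together in 1 of 67 and 4 of 24 cells, and Klf4 and Gfi1 in 0 of 67 and 0 of 24. In those 4 Irf8-low cells Csf1r and Gfi1 stood at 60.56 and 1.14, 51.81 and 25.57, 1.17 and 182.71, and 1.96 and 188.5 TPM. Most of these pairs thus had 1 gene near the limit of 1 TPM. Ly86 and Fcnb were found together in 48 of 67 and 9 of 24 cells. Several of the Irf8-low cells counted for Ly86 were near the limit, for instance at 1.91 and 2.26 TPM. Many Irf8-high cells held only a few TPM of Fcnb.

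Across the 95 cells, the genes whose levels ran most like Irf8 were Gm26880, F13a1 and Ms4a6c, with Spearman's rho of 0.77, 0.73 and 0.73. This ranking covered 5731 genes with a mean of at least 20 TPM, whose median rho was 0.01, and the cells share a title series and a gate. Gm26880 is a long noncoding RNA gene at chr4:146509094-146511764 on the minus strand. It had medians of 1407 and 574 TPM and was detected in all 91 cells. Fcer1g, Serinc3, Emb, Rassf4, Ly6e, Selplg and Ctsh complete the first 10, down to 0.66. Within the 67 Irf8-high cells alone, rho was 0.53 for Gm26880, 0.51 for F13a1 and 0.36 for Ms4a6c, and over 45 Ly6C-GMP cells it was 0.54, 0.28 and 0.41.

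**Figure D4:**
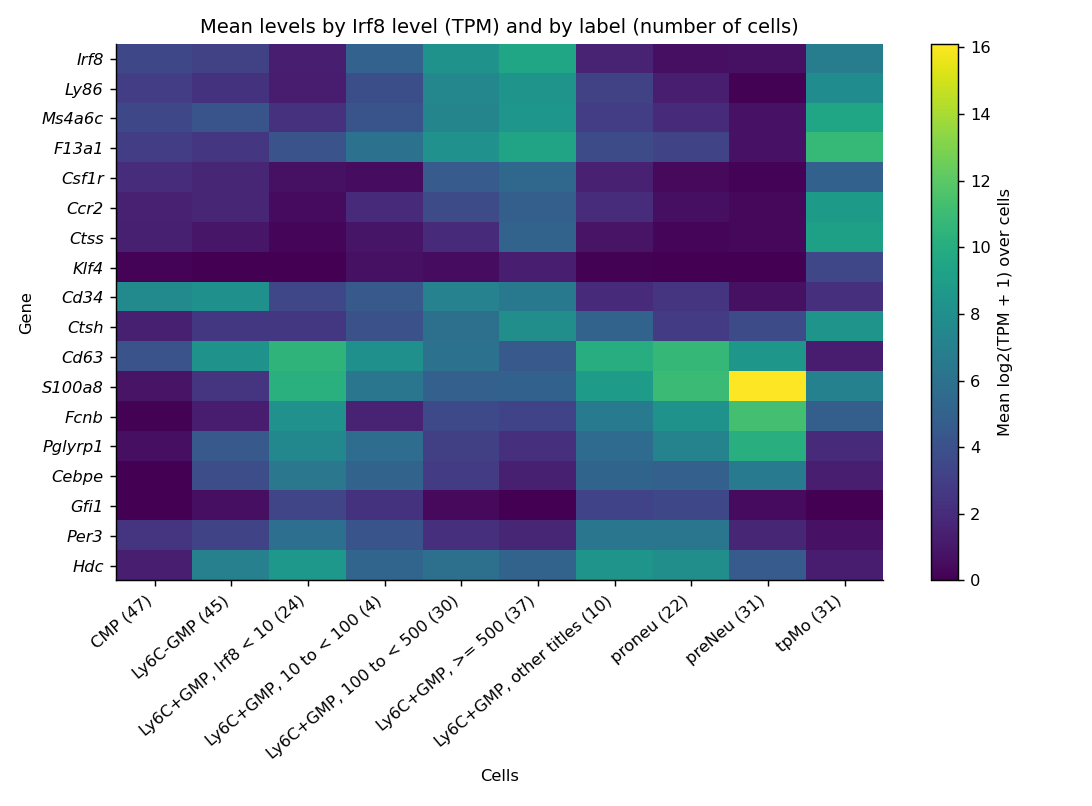
Mean log2(TPM + 1) of 18 genes (rows) in 10 sets of cells (columns, number of cells in brackets), with the 95 Ly6C+GMP cells divided by Irf8 level in TPM and the other cells by label. The Irf8-low column resembles the proneu column for Cd63, S100a8 and Gfi1, and the columns from 100 TPM share Ly86 and F13a1 with tpMo.

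Set beside the other labels, the Irf8-low cells were near the proneu cells for several granule genes. Cd63 had means of 1667 ± 684 and 1815 ± 760 TPM in Irf8-low and proneu cells, Ms4a3 of 5087 ± 1265 and 5411 ± 1030, and Fcnb of 1248 ± 1540 and 1211 ± 1358. Gfi1 had means of 44.9 ± 58.5 and 66.8 ± 81.1 TPM, against 1.61 ± 5.18 in preNeu. S100a8 was at 72687 ± 19606 TPM in preNeu and 3615 ± 3905 in proneu, where Irf8-low cells held 2386 ± 2139. Irf8 itself averaged 1.08 TPM in proneu and 1.25 in preNeu.

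The Irf8-high cells had lower means of F13a1, Ccr2 and Ctss than the tpMo cells, whose median of detected genes was 3082. Irf8 averaged 339 ± 289 TPM in tpMo, below the 567 ± 305 of the Irf8-high cells. F13a1 averaged 698 ± 466.1 TPM in Irf8-high and 1915 ± 830 in tpMo cells, Ccr2 107 ± 169 and 752 ± 642, and Ctss 125 ± 188 and 1186 ± 1014. Klf4 was detected in 25 of 31 tpMo cells against 14 of 67. Cd34 went the other way, with 247 ± 195 and 25.2 ± 71.8 TPM.

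The difference of tpMo minus preNeu cells shares no cell with the Ly6C+GMP groups. Of 115 genes higher by 2 log2 in Irf8-high cells and measured there, 91 (79.1%) were higher in tpMo by at least 1 log2 and 0 lower, where 40% of all 6705 measured genes were higher. Of 112 genes lower by 2 log2, 64 (57.1%) were lower in tpMo and 7 higher, where 6.32% of all genes were lower. The tpMo cells had more detected genes than preNeu, with medians of 3082 and 2373, and the part of that gap in these shares was not tested. All 15 most higher genes were higher in tpMo, among them Pld4 by 9.32 and Ms4a6c by 8.67 log2. Mgl2 and 3 others of the 15 most lower genes, Per3, Slc28a2 and Tnfrsf26, differed by 0.28, -0.93, -0.95 and -0.74 log2.

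The same limits of Irf8 were then applied to the 45 Ly6C-GMP cells, none of which had entered the choice above. They gave 14 high, 27 low and 4 intermediate cells, with 8674 genes measured. Of 122 genes higher by 2 log2 in the Ly6C+GMP, 75 (61.5%) were higher here by at least 1 log2 and 2 lower, against 18.9% of all measured genes. Of 120 genes lower by 2 log2, 54 (45%) were lower and 9 higher, against 8.36% of all genes.

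Ly86 differed by 4.10 log2 in the Ly6C-GMP (medians 335 and 0 TPM), F13a1 by 4.05 and Ms4a6c by 3.61. Cd63 differed by -5.25 (medians 68.8 and 1503 TPM) and Cebpe by -3.87. Gfi1 differed by only -0.65, with 1 of 14 and 6 of 27 cells detected. The neutrophil regulator list did not repeat as a whole. Of its 14 measured members 2 were higher and 2 lower by at least 1 log2, with a median of -0.11. All 15 genes named as most higher were higher by over 1 log2. Of the 15 named as most lower, 11 were measured and 9 were lower by over 1 log2. Fcnb went the other way, at 0.72, with 5 of 14 and 5 of 27 cells detected, and Per3 was at -0.88. Klf4 was listed at 0 in all 45 cells.

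The Ly6C-GMP titles start with either RMB or RHP, a prefix whose meaning the labels do not give, and the number of detected genes differs with it. Among RMB cells (8 high and 18 low, medians of 4990 and 4156 detected genes), 57.4% of the higher genes were higher again against 26.9% of all genes. Among RHP cells (6 and 9, with a median of 4236 detected genes in the high cells and more in the low cells) the shares were 73.3% and 24.4%. For the lower genes they were 36.4% against 10.7% in RMB and 66.1% against 23.2% in RHP cells. Ly86 differed by 4.01 and 4.57 log2 within the RMB and RHP cells and Cd63 by -4.93 and -5.62, while S100a8 differed by -0.30 and -3.44.

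In the 47 CMP cells the limits gave 14 high and 30 low cells, with 8134 genes measured. Of 119 genes higher by 2 log2 in the Ly6C+GMP, 91 (76.5%) were higher in Irf8-high CMP cells, against 34.1% of all genes. Of 96 genes lower by 2 log2, 15 (15.6%) were lower again, against 4.94% of all genes. More of them, 29 (30.2%), were higher in Irf8-high CMP cells, near the 34.1% of all genes. Irf8-high CMP cells had more detected genes, with medians of 4253 and 3026, and the part of that gap in these shares was not tested.

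**Figure D5:**
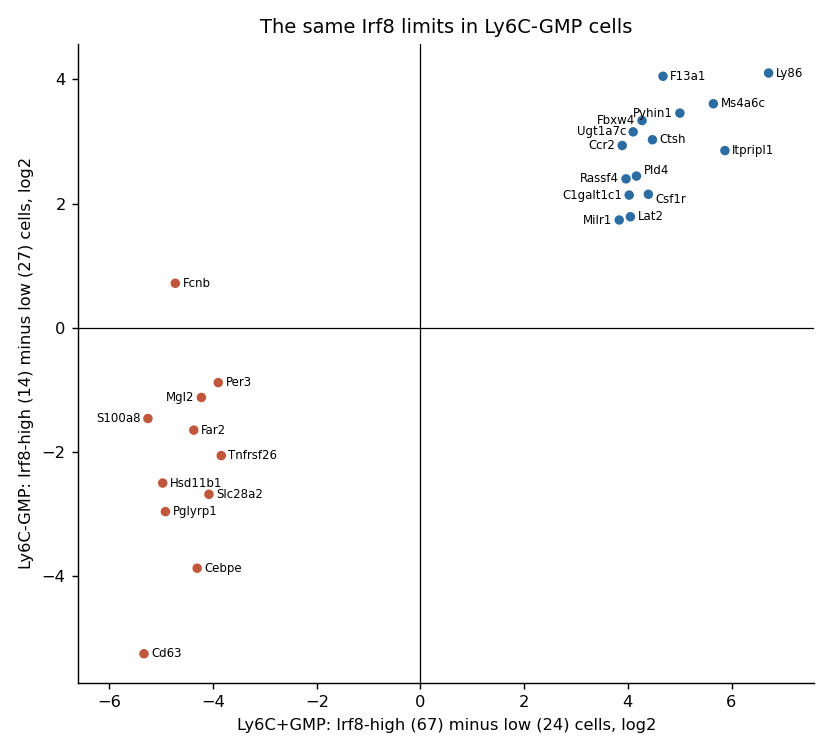
Differences of mean log2(TPM + 1) between Irf8-high and Irf8-low cells in the Ly6C+GMP (x axis, 67 and 24 cells) and in the Ly6C-GMP (y axis, 14 and 27 cells) for the 15 most higher genes (blue) and the 11 measured of the 15 most lower genes (red). All points but Fcnb lie on the same side of 0 on both axes.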

How the data were processed

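Single cells were sorted from mouse bone marrow and made into full-length cDNA libraries by SMART-seq2, per the labels' protocols. The authors deposited 1 table of TPM for all cells, and RSEM 1.2.19 and GRCm38 are named per the submitters' processing notes. For aligner, annotation and filters, the sources used here name nothing. TPM keeps no read depth, so detected genes (1 TPM or more) stand in for it. The libraries are not stated to mark strand, so antisense and overlapping genes cannot be told apart, and near-identical genes (Ly6c1 and Ly6c2, the Ms4a6 genes) share reads by estimate. No molecular identifiers were used.

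From the table, mean log2(TPM + 1) was compared between the Irf8 groups over genes that at least 10 of the 95 cells had at 1 TPM or more, and a difference of at least 1 log2 in either direction was counted. No test was made, because no animal or sort is named. The calculation was tested on simulated data. Named genes were the 15 most different each way (mean of at least 20 TPM in the higher group, detected in at least 50% of its cells, 70% of cell pairs in that direction, predicted, pseudogene and ribosomal protein genes left out), the given markers, up to 4 of each of 23 gene lists with a mean of at least 5 TPM, and the 10 most correlated with Irf8. Gate genes, Irf2 and other list members outside this rule were named after their values were seen. The groups, markers and lists were chosen with earlier results of these data known. Some list members are not reported here. Doublets were not called. Gene positions are from GENCODE M21, promoters from RefSeq. Alternatives covered the pseudocount, filter, scale, scaling, Irf8 limits, detected genes and single cells. Python 3.11.15, numpy 2.4.6, pandas 2.3.3, scipy 1.17.1 and matplotlib 3.10.9 were used.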

Additional observations from a re-analysis of the deposited data

Results flagged for a closer look

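In groups of 4 to 10 cells, a highest or lowest value was flagged by its gap to the next relative to the whole range. For normally distributed values, chance meets this rule in about 1 in 20 groups. Of 10 groups of values checked, 6 met it. Single-cell TPM are skewed and often 0, so that rate does not hold here and the 6 cannot be read against it. For Klf4 all cells but 1 are at 0, and any value above 0 meets the rule. Irf8 in the 4 intermediate cells was also bounded by the choice of those cells. Among the 10 Ly6C+GMP cells with other titles, which were in neither Irf8 group, the highest Irf8 value was 373 TPM and the next 67, and the highest Ly86 value was 942 TPM and the next 456. In the same 10 cells the highest Fcnb value was 8404 TPM with 441 next, and the highest Klf4 value 0.61 TPM, below the detection limit, with 0 next. Among the 4 intermediate cells, the highest Klf4 value was 6.51 TPM, in the cell with 70.2 TPM of Irf8, with 0 next, and the lowest Fcnb value was 0 TPM, in the same cell, with 3.21 next.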

How the results depend on the processing

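The counts past 1 log2 depend on the scale. With a pseudocount of 10 TPM, 217 genes were higher and 192 lower, and with 0.1 TPM 1548 and 1449. With only the 10 cells under 1 TPM of Irf8 as low, the counts were 1307 and 1199, a setting that leaves fewer cells. Requiring also that at least 70% of cell pairs go that way, which was chosen after seeing the data, gave 145 and 131. The monocyte list median was 0.70, 2.19 and 2.17 with a pseudocount of 10, of 0.1, and as a log2 ratio of mean TPM. By that ratio the secondary and late granule median was 0.30, in place of -0.58. Without the cell rich in Ngp it was -0.71 on the same scale, and the monocyte median 2.18, a setting added after seeing the data. The eosinophil list median, -2.04 from Siglecf alone, was 0.00999 without a filter on low values, where more members enter, and Gins2 was -0.60 with low cells under 1 TPM, where the cause was not tested. Of 83 named genes past 1 log2, 82 kept their direction in every setting that gave them a value and 58 stayed past 1 log2. Leaving out the cell rich in Ngp, also chosen after seeing the data, gave 838 and 759. No paired analysis was possible because the labels give no replicate numbers shared between groups and a cell is in 1 group only. Each group is 1 sample of cells from an unstated number of animals, so no difference here has a replicate check.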

Other observations

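The same limits of Irf8 in the 47 CMP cells gave 14 high, 30 low and 3 intermediate cells, and the granule genes went the other way there. Of 15 primary granule genes, 13 were higher in Irf8-high CMP cells and 1 lower, with a median of 2.12 log2, where the Ly6C+GMP had a median of -1.31 and the Ly6C-GMP -0.10. Within the CMP the median was 2.44 among RMB and 2.24 among RHP titles. The difference between the populations was not tested. Cd63 stayed on the lower side in CMP, at -2.51 log2, and Ly86, F13a1 and Ms4a6c were higher by 6.24, 6.12 and 5.76. Irf8-high CMP cells also had more detected genes, with medians of 4402 and 2943 among RMB titles and 3979 and 3408 among RHP titles, and 34.1% of all 8134 measured genes were higher in them. Irf8-low CMP cells held more RNA of other lines. Car2, a carbonic anhydrase of erythroid cells, had means of 26.6 ± 97.7 TPM in Irf8-high and 895 ± 881 TPM in Irf8-low CMP cells (-7.17 log2). Meis1, a factor of stem cells, differed by -3.70 log2, and 2 of 3 measured erythroid and megakaryocyte genes were lower in the Irf8-high cells, with a list median of -2.85. The part of these markers and of the gap in detected genes in the granule result was not tested.

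Genes of cell division had different medians in the 3 populations. The mitosis list had a median difference of 0.11 log2 in the Ly6C+GMP, where all genes had 0.05. It had 0.94 in the Ly6C-GMP, with 11 of 23 genes higher and 0 lower beside an all-gene median of 0.18. In the CMP it had 1.88, with 15 of 23 higher beside 0.53. Of all measured genes, 18.9% were higher in the Ly6C-GMP and 34.1% in the CMP. DNA replication genes had medians of 0.49, 0.97 and 1.45 in the same order. Neither list was split by title prefix, but named members varied with it in the Ly6C-GMP. Among RMB titles Birc5, Cenpe, Ttk and Ube2c of the mitosis list differed by 2.24, 0.99, 1.30 and 1.32 log2. Among RHP titles they differed by -1.035, -1.33, 0.87 and 0.05. Gins1, Gins2, Mcm2 and Tk1 of the replication list were at 2.11, 1.30, 0.04 and 2.57 log2 among RMB titles. Among RHP titles they were at -1.51, -3.04, 1.44 and 0.74. Median detected genes of high and low cells were 4820 and 4819 in the Ly6C+GMP and 4253 and 3026 in the CMP, and the low Ly6C-GMP cells had 4270, below the high ones. Their part in these differences was not tested, nor was the difference between the populations.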
